A study of Mus musculus with 2 samples.

Results

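Smooth muscle cells and pericytes were picked out of single-cell RNA-seq libraries of mouse prostate tumour tissue by their contractile transcripts. A cell was a member when Acta2, Tagln and Myl9 together made up at least 20 of every 10000 of its unique molecular identifiers (UMIs, each marking 1 captured RNA molecule). It also had no Ptprc UMI, fewer than 20 UMIs per 10000 of Col1a1, Col1a2, Col3a1 and Dcn, and fewer than 5 per 10000 of Krt5, Krt14 and Krt15. Of 19116 cells with over 200 and under 7000 genes, under 15% mitochondrial UMIs and at least 1000 UMIs, 56 were members. The members were thus chosen by these values, and the levels of Acta2, Tagln and Myl9, the collagens and the basal keratins are given as a description only.

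The libraries came from mice of 2 genotypes, with 1 library each. DoubleTg mice (hHGFtg-hMETtg-PBCre) carried a human HGF transgene active throughout the body and a human MET transgene at the H11 locus that PB-Cre4, a Cre recombinase under the probasin promoter, turns on in prostate epithelium. TripleTg mice (hHGFtg-hMETtg-Ctnnb1-PBCre) shared all of these alleles and added Ctnnb1 L(Ex3)/+, from which the same recombinase removes exon 3 to leave a stabilised β-catenin. Because the recombinase is driven by an epithelial promoter, recombination of MET and Ctnnb1 is designed for the epithelium and not for the cells described here. The mice were of a mixed C57BL/6 and C3H SCID background. The labels name the tissue prostatic adenocarcinoma in DoubleTg and prostatic carcinoma in TripleTg, and no age or number of animals is given for these libraries. With 1 library per genotype no difference between genotypes was tested, and genotype, animal, tumour and library cannot be told apart. Intervals, at 95%, allow for counting error alone.

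Smooth muscle cells contract through an array of smooth muscle actin and myosin, which is assembled under the control of serum response factor and its partner myocardin. In the prostate they form the fibromuscular sheath around the glands and the walls of arterioles. Pericytes are the mural cells of capillaries. They share part of the contractile array, lie in the same basement membrane as the endothelium, and are known for the regulator of G protein signalling Rgs5, the receptor Notch3 and a potassium channel made of Kcnj8 and Abcc9.

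Serum response factor binds the CArG box, and the 250 bases before each RefSeq start were searched for this motif on both strands, which are equivalent because the motif reads the same on each. The windows are a set of RefSeq promoter windows on GRCm38.p6. The set used has none for Tagln, Myh11 or Actg2, which were not searched, and holds the other 17 of the 20 contractile protein genes listed below. Since some genes have more than 1 start, these genes have 20 windows, of which 3 held a match (15%), those of Myl9, Myl6 and Vcl, against 482 of all 32851 windows (1.47%). None of the 11 mural genes with a window had a match. The match of Myl6 lies before an internal start, inside the gene's annotated span, and the window before its outer start held none. The sequences of Myl9, a myosin light chain, and Vcl, the adhesion protein vinculin, are printed 5′ to 3′ with the CArG box in capitals, since these matches lie ahead of the whole gene. That of Myl9 is chr2:156775214-156775419 on the plus strand, ending where the GENCODE gene begins, with the box at position -161 from the RefSeq start. That of Vcl is chr14:20929148-20929397 on the plus strand, with the box at position -227.
Myl9: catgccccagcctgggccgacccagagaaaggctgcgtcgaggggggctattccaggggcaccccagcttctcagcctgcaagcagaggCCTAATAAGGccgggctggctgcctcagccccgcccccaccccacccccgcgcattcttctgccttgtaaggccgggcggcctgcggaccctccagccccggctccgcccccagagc
Vcl: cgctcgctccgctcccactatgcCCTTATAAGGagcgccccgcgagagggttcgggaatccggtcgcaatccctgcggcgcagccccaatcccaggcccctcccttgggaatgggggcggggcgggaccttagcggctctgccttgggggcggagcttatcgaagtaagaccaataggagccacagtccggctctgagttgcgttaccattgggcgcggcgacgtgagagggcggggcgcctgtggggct
A match describes these letters and not a bound site, and no match says only that the motif is not in the window.

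DoubleTg contributed 32 members of 9854 kept cells (0.325%, 0.222 to 0.458) and TripleTg 24 of 9262 (0.259%, 0.166 to 0.385). The members held 558120 UMIs in DoubleTg and 118648 UMIs in TripleTg, with a median of 11068 and 3830 UMIs per cell, against 18756 and 20669 UMIs in the other kept cells. In DoubleTg 2 members had a contractile sum under 25 per 10000, the lowest at 20.1, and 6 cells that met all other limits lay between 15 and 20, the highest at 18.5. In TripleTg 4 members lay under 25, the lowest at 20.6, and 6 cells lay just outside, the highest at 19.2. For the collagen sum, 7 DoubleTg and 3 TripleTg members lay at 15 or above, the highest at 19.3 and 18.7, and 4 and 7 cells that met all other limits lay between 20 and 25, the lowest at 20.8 and 20.2. No cell barcode was shared between members of both libraries, and 30 were shared among all deposited cells.

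The label was then checked against the marker genes. Myh11, the smooth muscle myosin heavy chain, is the most specific marker of mature smooth muscle. It was present in 26 of 32 DoubleTg and 15 of 24 TripleTg members. Rgs5, which marks pericytes and vascular smooth muscle, was present in 21 of 32 and 16 of 24 members. Acta2 lies at chr19:34241090-34255590, Myh11 at chr16:14194535-14291372 and Rgs5 at chr1:169655501-169695813 on GRCm38. Markers of skeletal muscle were at 0 in the mural and visceral ranges defined next, and the endothelial genes Pecam1, Cdh5 and Kdr were at 0 in the mural range. Of the whole list of 11 endothelial markers, 5 were found there in DoubleTg (14 UMIs, 101 CPM, against 74.6 CPM in the other kept cells) and 2 in TripleTg (3 UMIs, 48.3 CPM, against 88.1 CPM).

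A part of the members also carried epithelial transcripts. Members were divided in a fixed order: epithelial-marked where Epcam, Krt8 and Krt18 together reached 20 per 10000, then endothelial-marked, then by the larger of 2 summed indices of at least 5 per 10000, with a tie placed in the visceral range. The visceral index was the sum of Actg2, Des, Cnn1, Smtn and Synpo2, genes of the smooth muscle of hollow organs and gland sheaths. The mural index was the sum of Rgs5, Notch3, Kcnj8, Abcc9, Higd1b, Ndufa4l2, Cox4i2, Vtn and Mcam. These are ranges of a sum and not cell types. Over both libraries 27 of 56 members (48.2%, 34.7 to 62.0) were in the mural range, 11 (19.6%, 10.2 to 32.4) in the visceral range, 15 (26.8%, 15.8 to 40.3) were epithelial-marked, 0 were endothelial-marked and 3 fell in none.

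**Figure D1:**
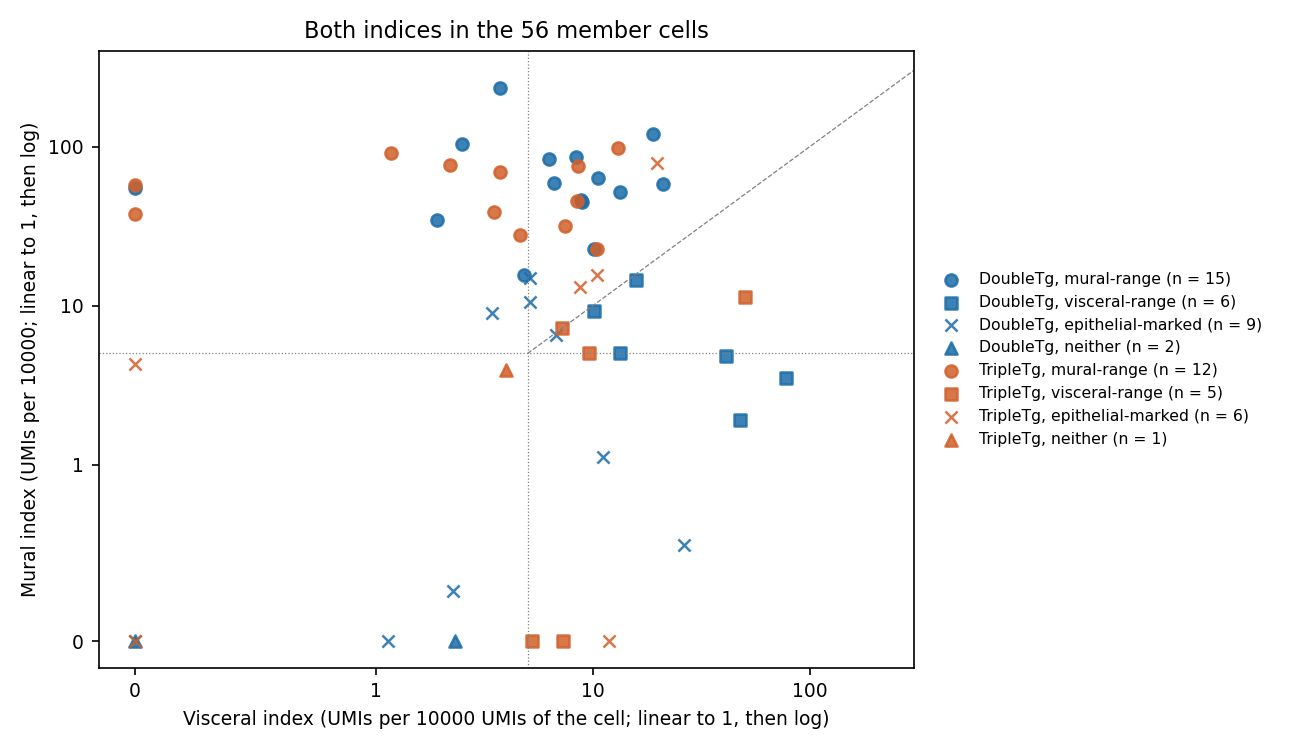
Visceral index (x axis) and mural index (y axis) of each of the 56 members, in UMIs per 10000 UMIs of the cell, linear to 1 and logarithmic above. Colours give the library and symbols the range, dotted lines mark the minimum of 5 and the dashed line equal indices. The 27 mural-range cells lie above the minimum mural index, as the choice of range required. Their mural index runs from 15.7 to 232 in DoubleTg and from 22.5 to 97.3 in TripleTg. The 11 visceral-range cells are spread out.

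The shares of the ranges had overlapping intervals in both libraries. The mural range held 15 of 32 DoubleTg members (46.9%, 29.1 to 65.3) and 12 of 24 TripleTg members (50%, 29.1 to 70.9). The visceral range held 6 (18.8%) and 5 (20.8%), and 9 (28.1%) and 6 (25%) were epithelial-marked. In TripleTg the epithelial-marked cell nearest the limit, at 22.7 per 10000, had a mural index of 79.3 and 21 Rgs5 UMIs. The highest TripleTg member under the limit, a mural-range cell, lay at 18.4. In DoubleTg the lowest epithelial-marked cell lay at 29.3 and had 1025 UMIs. With a contractile minimum of 40 per 10000 the TripleTg members numbered 15, of which 6.67% were epithelial-marked. Among the cells of the mural and visceral ranges, 2 in DoubleTg and 2 in TripleTg had indices within 2-fold of each other, and 1 of these TripleTg cells was tied, with both indices at 7.20 per 10000. It is 1 of the 5 TripleTg visceral-range cells and held all 21 Ccl11 UMIs of that range. The TripleTg visceral range rests on few cells, since 1 cell held 54.2% of its UMIs, and raising the index minimum to 10 left 4.17% of TripleTg members in it. The largest cell held 32.7% of the UMIs of the DoubleTg visceral range, and 10.7% and 13.8% of those of the mural ranges. Depth differed, with medians of 8857 and 5343 UMIs per cell in the mural range, 11270 and 4128 in the visceral range and 33126 and 2323 in the epithelial-marked cells of DoubleTg and TripleTg.

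The epithelial-marked cells were kept in every comparison over all members and left out of those within the mural and visceral ranges. They held 313877 of the 558120 member UMIs in DoubleTg and 14828 of 118648 in TripleTg. Their 10 epithelial markers summed to 14608 CPM (the UMIs of a gene per 1000000 UMIs of the cells summed) in DoubleTg and 12004 CPM in TripleTg, against 514 and 1448 CPM in the mural and visceral ranges together. In DoubleTg 1 cell among them held 96.8% of the members' 1047 UMIs of Pbsn, the probasin gene, and 1 cell held 71.1% of their 26076 UMIs of the secretory gene Sbp. No doublet caller was run, and whether these cells are doublets was not tested.

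All members, the epithelial-marked ones among them, were first compared with all other kept cells of their library. This describes what the rule gathered. Of 4071 genes compared, 759 (18.6%) were at least 2-fold higher in members of both libraries. The contractile protein list stood at 19 of 20 genes, pericyte and vascular mural genes at 16 of 16, contraction signalling and receptors at 15 of 18, and matrix and basement membrane at 28 of 31. Heat shock genes stood at 0 of 9 and hypoxia and glycolysis genes at 0 of 10. The choice of members fixes the direction of Acta2, Tagln and Myl9, and the other genes come from the same cells, so these counts describe the members and test nothing.

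Of the 15 genes with the highest ratios, some are of calcium handling or the contractile array and the rest are of other kinds. Pln encodes phospholamban, which restrains the calcium pump of the sarcoplasmic reticulum. It stood at 86.0 CPM in DoubleTg and 84.3 CPM in TripleTg members, a log2 ratio to the other kept cells of 12.10 (10.78 to 13.79) and 11.07 (9.62 to 12.54). Jph2, which ties the reticulum to the plasma membrane, had log2 ratios of 7.83 (7.30 to 8.33) and 8.76 (7.67 to 9.72), with 81.8% of its 11 TripleTg UMIs in 1 cell. Myh11 stood at 1138 and 674 CPM, log2 ratios of 8.53 (8.37 to 8.68) and 9.72 (9.32 to 10.10). Lmod1, which nucleates smooth muscle actin filaments, Cnn1, an actin-binding calponin, and Pdlim3 of the actin cross-links were among them, as were Mustn1, Nrip2, Rgs7bp, Gm13861 and Gm13889. So were Gja4, the gap junction protein connexin 37, with log2 ratios of 7.45 (7.21 to 7.68) and 8.23 (7.75 to 8.68), and Gucy1a3, a subunit of the nitric oxide receptor guanylate cyclase, with 7.16 (6.74 to 7.56) and 7.63 (6.84 to 8.33). The chemokine Ccl11 completed this set together with Kcnj8, at log2 ratios of 6.70 (6.52 to 6.88) and 7.84 (7.53 to 8.14) for Ccl11.

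Acta2 and Tagln had higher medians per cell in the visceral range than in the mural range of both libraries, while Myh11 and Myl9 did so in DoubleTg only. Acta2 ranged from 7.42 to 181 UMIs per 10000 over the 15 DoubleTg mural-range cells, with a median of 20.9, and from 5.62 to 107 with a median of 18.2 over the 12 TripleTg ones. In the visceral range it ran from 30.2 to 189 with a median of 81.3 in DoubleTg and from 10.4 to 199 with a median of 77.5 in TripleTg. The cells of the ranges overlapped in both libraries. Myh11 had a median of 10.4 in the mural range and 30.8 in the visceral range of DoubleTg, and of 2.14 and 1.51 in TripleTg. Myl9 had medians of 17.4 and 32.5 in DoubleTg and of 15.5 and 12.6 in TripleTg. The 20 contractile genes together had a median of 150 UMIs per 10000 in DoubleTg and 148 in TripleTg mural-range cells, against 516 and 242 in the visceral range, a list that includes the 5 visceral index genes. Cnn1 was in 6 of 6 DoubleTg visceral-range cells and in 3 of 15 mural-range cells, and in 2 of 5 and 1 of 12 in TripleTg. Actg2, the enteric actin, was in 4 of 6 and 1 of 15 DoubleTg cells, and in 1 of 5 and 1 of 12 TripleTg cells. Both are visceral index genes, so this difference was built into the ranges.

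**Figure D2:**
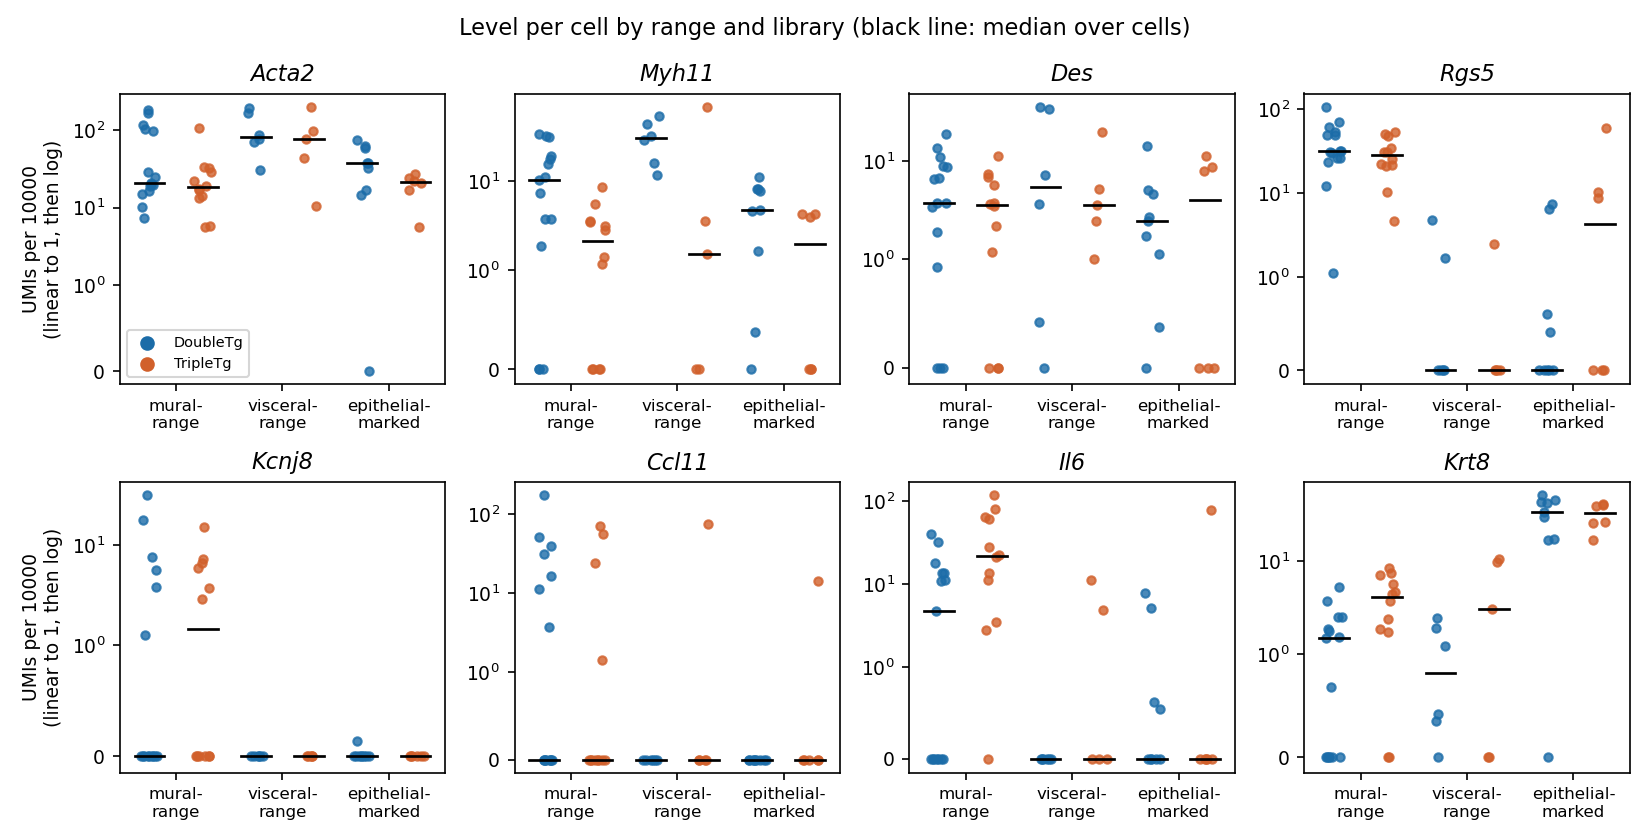
UMIs per 10000 UMIs of the cell (y axis, linear to 1 and logarithmic above) of 8 genes in each mural-range, visceral-range and epithelial-marked cell, by library, with a black line at the median over cells. Kcnj8 UMIs are found in mural-range cells and in 1 epithelial-marked cell, Rgs5 is present in all 27 mural-range cells, and Krt8 is highest in the epithelial-marked cells, which it helped to choose.

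Of 5374 genes compared, 110 (2.05%) were at least 2-fold higher in the mural range in both libraries and 168 (3.13%) were at least 2-fold higher in the visceral range. With each cell thinned to 2000 UMIs these counts were 22 and 78, and with an index minimum of 10 they were 33 and 270. The contractile list had 0 of 20 genes higher in the mural range and 7 higher in the visceral range, namely Tagln, Myh11, Cnn1, Smtn, Synpo2, Tpm2 and Flna, of which Cnn1, Smtn and Synpo2 belong to the visceral index that defined the range. Tagln stood at 5858 and 2417 CPM in the mural range of DoubleTg and TripleTg and at 14004 and 5695 CPM in the visceral range. Myh11 stood at 1401 and 258 CPM against 2991 and 1608 CPM, and 1 cell held 93.2% of the TripleTg visceral-range UMIs of Myh11.

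Of the pericyte and vascular mural genes, 8 of the 9 that formed the index were higher in the mural range, as the index required. Rgs5 was in all 15 DoubleTg and all 12 TripleTg mural-range cells, from 1.13 to 108 UMIs per 10000 (median 31.8) and from 4.61 to 53.8 (median 28.2), and in 2 of 6 and 1 of 5 visceral-range cells. Its summed level was 3864 and 3174 CPM in the mural range against 68.8 and 54.5 CPM in the visceral range, log2 ratios of 5.81 (4.68 to 7.27) and 5.86 (3.99 to 8.92). Kcnj8, the pore of the ATP-sensitive potassium channel, stood at 376 and 403 CPM in the mural range and had no UMI in the visceral range of either library. Abcc9, its regulatory subunit, lies beside Kcnj8 on chromosome 6 and stood at 209 and 338 CPM against 11.5 CPM and 0. Higd1b and the matrix protein vitronectin (Vtn) had no UMI in the visceral range, at 224 and 516 CPM and at 267 and 209 CPM in the mural range.

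Mural genes outside the index were also compared. Pdgfrb, the receptor through which pericytes are recruited, stood at 238 and 306 CPM in the mural range and 91.7 and 136 CPM in the visceral range, log2 ratios of 1.38 (0.24 to 2.70) and 1.17 (-0.30 to 2.94). Ebf1, a transcription factor of pericytes, stood at 455 and 644 CPM against 68.8 and 136 CPM, log2 ratios of 2.73 (1.52 to 4.23) and 2.24 (0.90 to 3.94). Gja4, at 744 and 467 CPM in the mural range and 527 and 436 CPM in the visceral range, did not separate them. Cspg4, the NG2 proteoglycan used as a pericyte marker, was lower in the mural range of DoubleTg, at 57.8 CPM against 332 CPM, and stood at 48.3 and 54.5 CPM in TripleTg on 3 and 2 UMIs. Anpep, another pericyte marker, had no UMI in the mural range.

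Cytokine and interferon response genes were among those higher in the mural range. Cytokines and chemokines had 4 of 13 genes higher in the mural range and 0 higher in the visceral range, namely Ccl11, Cxcl1, Cxcl2 and Il6, of which Cxcl2 came from 1 cell in DoubleTg. Il6 stood at 975 and 3722 CPM in the mural range and at 0 and 300 CPM in the visceral range. Interferon response genes had 3 of 12 higher in the mural range, among them Isg15, at 1827 and 1144 CPM against 103 and 218 CPM, log2 ratios of 4.15 (3.20 to 5.29) and 2.39 (1.34 to 3.66). The 12 genes with the highest ratios were Procr, Rgs5, Cxcl1, Fabp4, Il6, Rgs16, Dnajb1, Impdh2, Ifitm1, Meg3, Iigp1 and Tnfaip6. Procr, the receptor of protein C, stood at 2376 and 4527 CPM against 45.8 and 54.5 CPM, log2 ratios of 5.70 (4.33 to 7.58) and 6.38 (4.51 to 9.43), and was in 14 of 15 and 11 of 12 mural-range cells.

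Among the 12 leading genes of the visceral range were Igfbp2, Smoc2, Gas6, Phlda3, Cnn1, Ptgis, Ltbp2, Pcp4, Inhba and Sgk1. Igfbp2, which binds insulin-like growth factors, stood at 2957 and 5205 CPM and had no UMI in any mural-range cell, but 1 cell held 96.9% of its visceral-range UMIs in DoubleTg and 98.4% in TripleTg. In contractile cells that failed only the collagen limit, Igfbp2 was in 57 of 135 DoubleTg and 12 of 59 TripleTg cells. Smoc2 was in 68 and 37 of those cells, so neither gene is particular to the visceral range. Gas6, a ligand of the TAM receptors, was spread over 6 of 6 and 4 of 5 visceral-range cells, at 539 and 981 CPM against 36.1 CPM and 0, with 80.6% of the TripleTg UMIs in 1 cell. Growth factors and ligands had 7 of 18 genes higher in the visceral range and 0 higher in the mural range. Inhba, the activin subunit, stood at 802 and 327 CPM against 36.1 CPM and 0, with 94.3% of the DoubleTg UMIs in 1 cell, and Wif1, an inhibitor of Wnt ligands, at 779 and 163 CPM against 7.22 and 16.1 CPM, from 2 and 1 cells. Matrix and basement membrane had 6 of 36 genes higher in the visceral range and 0 in the mural range. Fibronectin (Fn1) stood at 1341 and 572 CPM against 21.7 and 193 CPM, with 92.3% of the DoubleTg visceral-range UMIs in 1 cell.

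Receptors that set vascular tone were found at low counts. Of contraction signalling and receptors, 2 of 19 genes were higher in the mural range, the endothelin receptors Ednra and Ednrb, and 1, Ppp1r12b of the myosin phosphatase, was higher in the visceral range. Ednrb stood at 412 and 499 CPM in the mural range and at 0 and 54.5 CPM in the visceral range. Ednra stood at 296 and 177 CPM against 138 CPM and 0. Avpr1a, the vasopressin receptor, was in 4 of 15 DoubleTg mural-range cells, where 1 cell held 54.3% of its 46 UMIs. The angiotensin receptor gene Agtr1a had 4 and 1 UMIs in the mural range, and Adra1d, Oxtr and Chrm3 had none in the mural range of either library. Prostate stroma is known to contract through alpha-1 adrenergic receptors, and Adra1a had 5 UMIs in the DoubleTg mural and visceral ranges and none in those of TripleTg. Counts of 0 over so few cells limit cells with a UMI and do not show that a receptor is absent.

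The mural-range cells themselves spanned a wide range of contractile sums. They were divided by the presence of a Kcnj8 UMI, a split chosen after the values had been seen, with Kcnj8 itself a mural index gene. In DoubleTg the 6 cells with a Kcnj8 UMI had an Acta2, Tagln and Myl9 sum of 20.1 to 44.5 per 10000 (median 36.2), and the 9 cells without one had 52.2 to 413 (median 198). These DoubleTg groups did not overlap. In TripleTg the 6 cells with a Kcnj8 UMI had 20.6 to 80.5 (median 34.3) and the 6 without 45.6 to 216 (median 62.4), and these overlapped. The median mural index was 94.3 and 45.8 in DoubleTg and 72.9 and 34.5 in TripleTg with and without Kcnj8, and the median depth was 8008 and 10504 UMIs in DoubleTg and 5343 and 4294 UMIs in TripleTg.

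**Figure D3:**
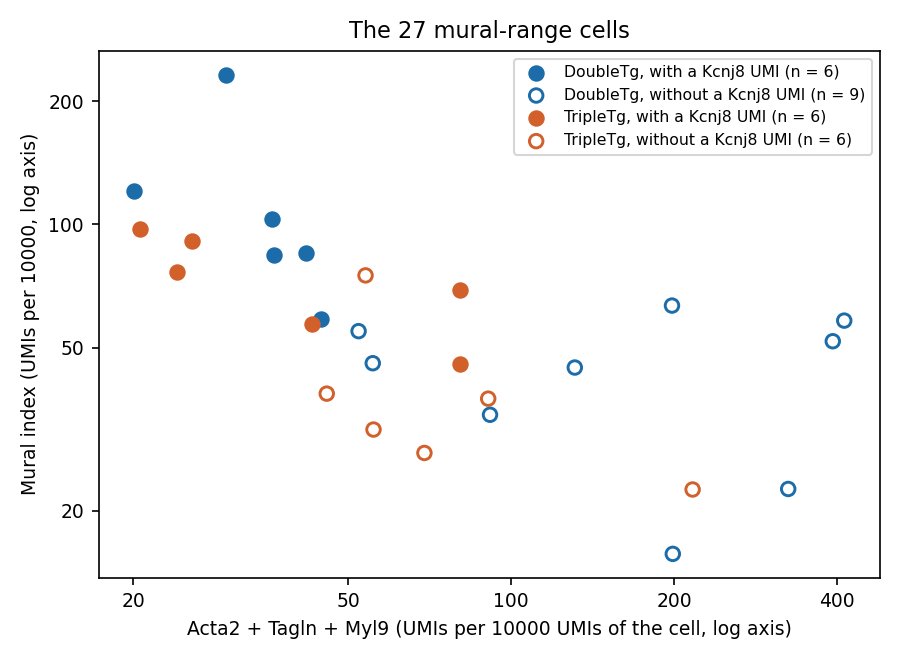
Summed Acta2, Tagln and Myl9 (x axis) against the mural index (y axis), both in UMIs per 10000 UMIs of the cell on log axes, for the 27 mural-range cells. Filled points carry a Kcnj8 UMI and colours give the library. All filled points of DoubleTg lie at a contractile sum of at most 44.5, and 2 filled TripleTg points lie near 80.5.

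Several genes followed this split in both libraries, and others did not. Pln had no UMI in the cells with Kcnj8 and stood at 274 CPM in DoubleTg and 265 CPM in TripleTg cells without it. Myh11 stood at 256 CPM with Kcnj8 and 2063 CPM without in DoubleTg, and at 140 and 416 CPM in TripleTg. Sncg, the gamma-synuclein gene, also picked after its values were seen, stood at 59.2 and 718 CPM in DoubleTg and at 84.2 and 265 CPM in TripleTg. Ccl11, which attracts eosinophils, ran the other way. It was in 6 of 6 DoubleTg cells with Kcnj8 and 1 of 9 without (5620 and 194 CPM), and in 3 of 6 and 1 of 6 TripleTg cells (2105 and 37.8 CPM). Abcc9 stood at 572 CPM and 0 in DoubleTg and at 421 and 227 CPM in TripleTg, and Higd1b at 532 and 45.6 CPM and at 758 and 189 CPM. Pdgfrb stood at 316 and 194 CPM in DoubleTg and at 477 and 75.6 CPM in TripleTg. Among genes that changed direction, Notch3 stood at 276 and 547 CPM in DoubleTg and at 365 and 340 CPM in TripleTg. Mcam stood at 177 and 387 CPM and at 84.2 CPM and 0. The TripleTg intervals of Myh11 and of Sncg overlapped between cells with and without Kcnj8.

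The contractile minimum also left cells with mural genes outside. A mural index of at least 5 per 10000 was reached by 100 DoubleTg and 290 TripleTg kept cells that were not members, 91 and 266 of which failed the contractile minimum. After leaving out cells that failed any other limit or were epithelial-marked, 59 DoubleTg and 83 TripleTg cells remained. Of these, 25 and 18 had an Rgs5 UMI, and 29 and 57 had an endothelial marker UMI (Pecam1, Cdh5 or Kdr). The mural range therefore holds only cells with mural genes that also met the contractile minimum.

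A second kind of contractile cell failed only the collagen limit. These 135 DoubleTg and 59 TripleTg contractile collagen-positive cells had Acta2 at 3470 and 3443 CPM. Against them, the mural and visceral ranges together had Myh11 higher by a log2 ratio of 2.94 (2.74 to 3.14) in DoubleTg and 2.92 (2.44 to 3.39) in TripleTg. Col1a1 was lower, at -3.21 (-3.74 to -2.73) and -3.37 (-3.90 to -2.88), as the rule required. Matrix Gla protein (Mgp), an inhibitor of calcification, was also lower in members, at -3.41 (-3.55 to -3.27) and -2.37 (-2.59 to -2.16). Pln had no UMI in the collagen-positive cells of either library. Gja4 was higher in members in both, at log2 ratios of 7.61 (6.36 to 9.26) and 3.93 (3.19 to 4.71).

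The libraries differed in where Rgs5 was found. In DoubleTg the contractile collagen-positive cells had Rgs5 at 78.8 CPM, in 2 of 135 cells, while in TripleTg they had 1966 CPM, in 18 of 59 cells. Higd1b stood at 0.674 CPM, 1 UMI, and 348 CPM, and Ndufa4l2 at 25.6 and 476 CPM. The log2 ratio of the mural and visceral ranges over these cells for Rgs5 was 4.93 (4.64 to 5.23) in DoubleTg and 0.04 (-0.18 to 0.25) in TripleTg. The members of TripleTg thus leave out 18 contractile cells with Rgs5 that failed the collagen limit, and those of DoubleTg 2.

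The genotypes were compared with each ratio given as TripleTg over DoubleTg. Over all members, 1052 of 6151 genes (17.1%) were at least 2-fold higher in TripleTg and 483 (7.85%) at least 2-fold lower. With TMM scaling factors of 0.937 and 1.07 in place of total UMIs the counts were 857 and 702, and with each cell thinned to 2000 UMIs they were 332 and 228. At 100 CPM or more in either library they were 243 and 190. A lower sum under 3 UMIs was raised to 3, a larger CPM in TripleTg (118648 member UMIs) than in DoubleTg (558120). Genes of low level were thus more readily counted higher than lower in TripleTg, and the excess of higher genes is not read as a genotype difference. The ratios over all members also mix ranges and depths. Of 9 epithelial markers, 8 were at least 2-fold lower in TripleTg members, while 5 of 9 were higher over the mural and visceral ranges together. In those ranges together, 905 of 6836 genes (13.2%) were higher and 599 (8.76%) lower. Within the mural range, the only range with over 10 cells in each library, 765 of 6198 genes (12.3%) were at least 2-fold higher and 356 (5.74%) at least 2-fold lower. The median log2 ratio over these genes was 0. In the mural range 3 UMIs were 21.7 CPM in DoubleTg and 48.3 CPM in TripleTg, so the mural-range counts have the same limit.

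Within the mural range, the contractile list had 10 of 19 genes at least 2-fold lower in TripleTg and 0 higher, with a median log2 ratio of -1.01. Over the mural and visceral ranges together 5 of 20 were lower and 0 higher, with a median of -0.70, and over all members 1 of 20 was lower and 0 higher, with a median of -0.10. Acta2 stood at 6833 CPM in DoubleTg and 2755 CPM in TripleTg, a log2 ratio of -1.31 (-1.55 to -1.07), against -0.82 (-0.87 to -0.76) in the other kept cells. The medians over cells, 20.9 and 18.2 per 10000, were close, and the highest TripleTg cell, at 107, lay below the 3 highest DoubleTg cells. Myh11 was in 12 of 15 DoubleTg cells, from 0 to 34.3 per 10000 with a median of 10.4, and in 8 of 12 TripleTg cells, from 0 to 8.66 with a median of 2.14. Its summed level was 1401 and 258 CPM, a log2 ratio of -2.44 (-3.28 to -1.71), against -1.94 (-2.18 to -1.71) in the other kept cells. Thinned to 2000 UMIs per cell, Myh11 was found in 80.0% of the DoubleTg cells (12 cells, 51.9 to 95.7) and in 33.3% of the TripleTg cells (4 cells, 9.92 to 65.1), and unthinned in 80.0% and 66.7%.

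Other members of the array were as follows. Lmod1 had 36 UMIs in DoubleTg, 61.1% of them in 1 cell, and 2 in TripleTg, a log2 ratio of -3.01 (-6.11 to -1.05). Mylk, the kinase that starts contraction by phosphorylating myosin, stood at 780 and 338 CPM, a log2 ratio of -1.21 (-1.95 to -0.52), against 0.50 (0.40 to 0.59) in the other kept cells. Flna, the actin cross-linker filamin A, stood at 571 and 258 CPM, a log2 ratio of -1.15 (-2.02 to -0.36). Tpm1, a tropomyosin, stood at 1972 and 2046 CPM, a log2 ratio of 0.05 (-0.26 to 0.36). Within cells with a Kcnj8 UMI the log2 ratios of Acta2, Tagln, Mylk and Flna were 0.30, 0.90, 0.15 and 0.062. In the cells without one, Acta2 stood at 9835 CPM in DoubleTg and 3744 CPM in TripleTg, and Tagln at 8696 and 3290 CPM.

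**Figure D4:**
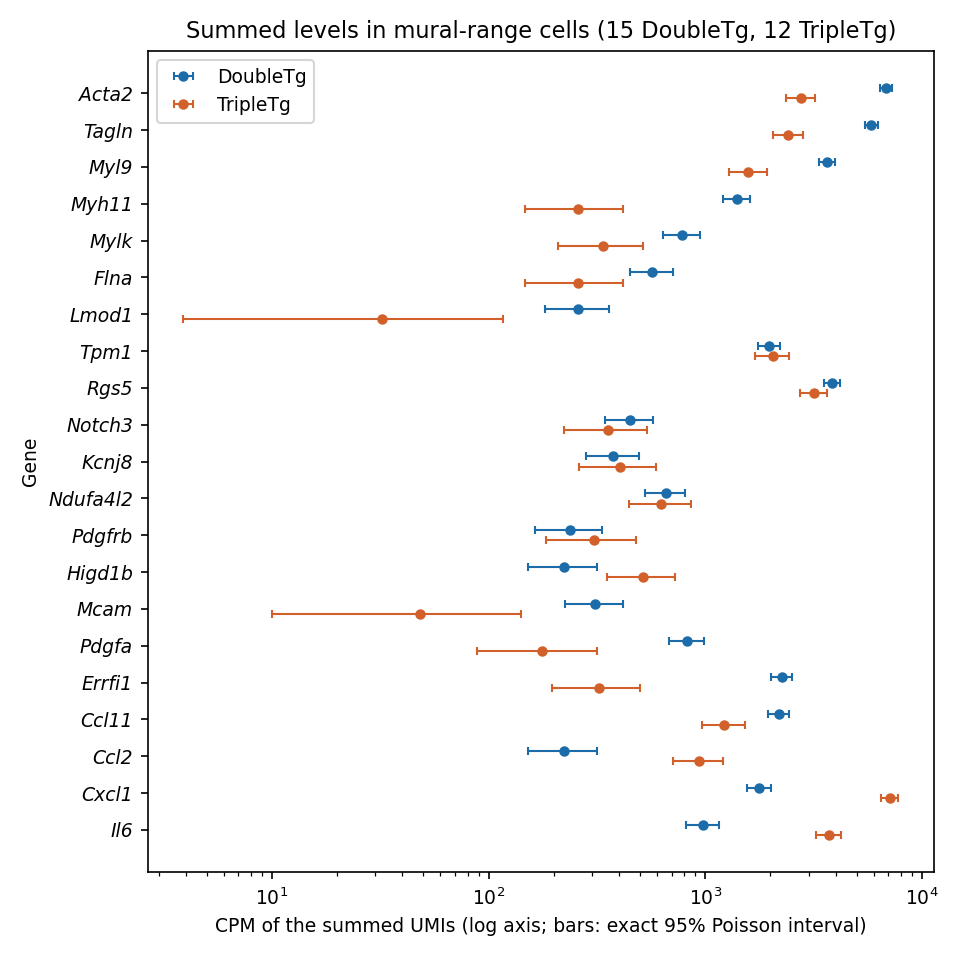
Summed level of 21 genes in the 15 DoubleTg and 12 TripleTg mural-range cells, in CPM on a log axis, with exact 95% Poisson intervals as bars. Contractile genes other than Tpm1 lie lower in TripleTg, Rgs5, Notch3, Kcnj8 and Ndufa4l2 lie close together, and Ccl2, Cxcl1 and Il6 lie higher in TripleTg.

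Of the pericyte and vascular mural genes, 9 formed the index that placed cells of both libraries in the mural range, so their levels there were partly set by the choice of cells. The list had 2 of 19 genes at least 2-fold higher and 1 lower in TripleTg, with a median log2 ratio of -0.06, while over all members 7 of 18 were higher and 0 lower, with a median of 0.80. Rgs5 had a log2 ratio of -0.28 (-0.53 to -0.05), Notch3 -0.34 (-1.11 to 0.39), Kcnj8 0.10 (-0.65 to 0.82) and Pdgfrb 0.36 (-0.54 to 1.22). Higd1b was higher, at 224 and 516 CPM, a log2 ratio of 1.2 (0.44 to 1.96), and 1 cell held 56.2% of its TripleTg UMIs. Mcam, the adhesion molecule CD146, was lower, with 43 UMIs in 12 of 15 DoubleTg cells and 3 UMIs in 1 of 12 TripleTg cells, a log2 ratio of -2.68 (-5.02 to -1.04). The other gene 2-fold higher was Rgs4, on 10 and 11 UMIs, a log2 ratio of 1.29 (-0.08 to 2.69).

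Cytokines had 7 of 15 genes higher in TripleTg and 1 lower in the mural range, with a median log2 ratio of 0.70. Over all genes compared there, 12.3% were higher and 5.74% lower. Among lists with over 10 genes compared, cytokines had the largest share higher. Shorter lists had larger shares, among them markers of other cells, with 3 of 3 immune, 4 of 6 fibroblast and 5 of 9 epithelial markers higher. Il6 was in 8 of 15 DoubleTg mural-range cells, from 0 to 39.9 per 10000 with a median of 4.73, and in 11 of 12 TripleTg cells, from 0 to 119 with a median of 21.7. Its summed level was 975 and 3722 CPM, a log2 ratio of 1.93 (1.62 to 2.25), against -0.18 (-0.25 to -0.11) in the other kept cells. It stood at 1558 and 5586 CPM in the cells with a Kcnj8 UMI, a log2 ratio of 1.84, and at 638 and 1210 CPM in those without, a log2 ratio of 0.92. Cells of both libraries overlapped. At 2000 UMIs per cell Il6 was found in 8 of 15 (53.3%, 26.6 to 78.7) and 9 of 12 cells (75%, 42.8 to 94.5), and these intervals overlapped. Contractile collagen-positive cells also carried it, unthinned in 46 of 135 DoubleTg and 24 of 59 TripleTg cells. Of those cells, 47 and 37 had a Cxcl1 UMI, and 54 and 26 a Ccl2 UMI.

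Cxcl1, a chemoattractant of neutrophils, was in 5 of 15 DoubleTg and 10 of 12 TripleTg cells, with medians of 0 and 44.0 per 10000. Its summed level was 1777 and 7105 CPM, a log2 ratio of 2.0 (1.77 to 2.23), against 1.0 (0.98 to 1.02) in the other kept cells, and 1 cell held 63.4% of its DoubleTg UMIs. With a Kcnj8 UMI it stood at 1755 and 10667 CPM, a log2 ratio of 2.60, and without one at 1789 and 2307 CPM, a log2 ratio of 0.37. Ccl2, which attracts monocytes, was in 4 and 6 cells at 224 and 934 CPM, a log2 ratio of 2.06 (1.41 to 2.74), against -0.92 (-0.96 to -0.88) elsewhere, and its log2 ratio was 0.94 with and 3.49 without a Kcnj8 UMI. Il1r1, the interleukin-1 receptor, stood at 238 and 564 CPM, a log2 ratio of 1.24 (0.51 to 1.97), which without the cells with Kcnj8 was -0.49, the 2 TripleTg UMIs left being raised to 3. Ccl11 was lower, at 2181 and 1224 CPM, a log2 ratio of -0.83 (-1.22 to -0.47), but 1 cell held 60.6% of its DoubleTg UMIs. Cxcl2, at 715 CPM from 1 cell in DoubleTg and 177 CPM in TripleTg, was the gene lower by over 2-fold.

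Growth factors, Notch genes and regulators gave a mixed picture. Pdgfa, the A chain of platelet-derived growth factor, stood at 823 and 177 CPM in the mural range, a log2 ratio of -2.22 (-3.26 to -1.32), against -0.73 (-0.77 to -0.70) in the other kept cells. Within cells with a Kcnj8 UMI the log2 ratio of Pdgfa was 0.51. Of the Notch list, 1 of 8 genes was higher and 3 lower in TripleTg. Nrarp, a feedback inhibitor of Notch, had 83 UMIs in 11 DoubleTg cells and 5 UMIs in 3 TripleTg cells, a log2 ratio of -2.90 (-4.56 to -1.62), while Hes1, a Notch target, stood at 123 and 516 CPM, 2.07 (1.18 to 3.01). Notch2 had 19 and 1 UMIs, -3.09 (-8.47 to -0.44). Jag1 stood at 166 and 96.7 CPM with an interval from -2.37 to 0.56.

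Errfi1, a feedback inhibitor of the EGF receptor that was listed among androgen and glucocorticoid responsive genes, was in all 15 DoubleTg and in 8 of 12 TripleTg mural-range cells. It stood at 2253 and 322 CPM, a log2 ratio of -2.81 (-3.54 to -2.15), against -0.52 (-0.54 to -0.51) in the other kept cells. Of 4 Wnt target genes compared 0 were higher in TripleTg and 1, Ccnd1, was lower, on 19 UMIs in DoubleTg and 2 in TripleTg, a log2 ratio of -2.09 (-5.24 to -0.04). Axin2 had 3 UMIs in 1 DoubleTg cell and none in TripleTg, while over the other kept cells its log2 ratio was 4.53 (4.42 to 4.63). Lef1 had 0 and 1 UMIs.

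In the matrix list 5 of 33 genes were higher and 2 lower in TripleTg. Sparcl1, a matricellular protein of vessel walls, stood at 3229 and 1224 CPM, a log2 ratio of -1.40 (-1.77 to -1.05), with the other kept cells at -0.94 (-0.98 to -0.90). Mgp stood at 2665 and 354 CPM, and 1 cell held 62.1% of its DoubleTg UMIs and its log2 ratio of -2.91 (-3.60 to -2.29) was 2.95 in the cells without a Kcnj8 UMI. Col4a1, the basement membrane collagen, stood at 664 and 612 CPM, -0.12 (-0.70 to 0.44), and Timp3, an inhibitor of matrix proteases, at 2593 and 2207 CPM, -0.23 (-0.53 to 0.06). Immediate early genes, which are known to respond to tissue dissociation, had 0 of 19 higher and 4 lower, and their sum was 16222 CPM in DoubleTg and 14855 CPM in TripleTg. Muscle transcription regulators had 3 of 14 genes higher and 0 lower, and myocardin (Myocd) had 6 UMIs in 3 DoubleTg cells and none in TripleTg. Of contraction signalling and receptors 0 of 24 were higher and 3 lower, Rock2, Pde3a and Avpr1a. Interferon response genes had 4 of 15 higher and 3 lower, TGF-β and BMP response 2 of 16 higher and 3 lower, heat shock 3 of 10 higher, and hypoxia and glycolysis 1 of 12 in each direction.

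Over all members, the genes raised in members with the highest TripleTg over DoubleTg ratios included some with few UMIs. Tifa, an adaptor of NF-κB signalling, had 7 UMIs in 5 DoubleTg and 39 UMIs in 10 TripleTg members, a log2 ratio of 4.71 (3.53 to 6.12), and 3.26 (2.04 to 4.69) within the mural range, against -0.17 (-0.28 to -0.06) in the other kept cells. Rdh10, an enzyme of retinoic acid synthesis, had 10 and 32 UMIs, 3.91 (2.85 to 5.10), and 3.38 (2.08 to 4.94) within the mural range, with the other kept cells at 2.5 (2.46 to 2.54). Colec11, a collectin of the complement system, had 4 and 17 UMIs, 4.32 (2.71 to 6.35). The other 12 highest were Ccl21a, all in 1 cell, Alb, Pgf, Trf, H2-M9, Hp, Scgb1a1, Fgf15, Rarres1, Ntm, Jchain and Nnmt. Alb, Hp, Scgb1a1 and Trf were also higher in the other kept cells of TripleTg, at log2 ratios of 2.92, 5.93, 3.40 and 1.84.

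Among the 15 lowest, Igfbp5, a binding protein of insulin-like growth factors, had 341 UMIs in 19 DoubleTg members, 59.5% of them in 1 cell, and 7 UMIs in 4 TripleTg members, a log2 ratio of -3.37 (-4.70 to -2.31), and -2.93 (-4.85 to -1.51) within the mural range. Pmvk, of the mevalonate pathway, had 133 and 4 UMIs, -2.82 (-4.72 to -1.43), and -3.58 (-5.49 to -2.19) within the mural range. Ccnd3, a D-type cyclin, had 64 and 3 UMIs, -2.18 (-4.50 to -0.57). Btbd3 had 89 and 5 UMIs, -1.92 (-3.58 to -0.64), against 0.89 (0.80 to 0.97) in the other kept cells. Erdr1 had 110 UMIs in 24 DoubleTg members and none in TripleTg, with the other kept cells at -8.71 (-9.20 to -8.27). The others were Flnc, Igfbp6, Gm26917, Bcl2l14, Sfrp2, Wif1, Postn, Csf1, Klf7 and Col12a1, of which Postn came from 1 DoubleTg cell to 94.4% and Gm26917 from 1 to 94.8%. Within the mural range both had the opposite direction, with log2 ratios of 3.62 (1.42 to 6.83) for Postn, on 2 and 11 UMIs, and 2.74 (1.54 to 4.11) for Gm26917.

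Transcripts of other cells were present in the mural range and differed between libraries. The 10 epithelial markers were all found, at 628 CPM in DoubleTg, from 1.21 to 16.7 per 10000 by cell, and at 1659 CPM in TripleTg, from 7.42 to 42.1. Secretory genes were at 3048 and 4350 CPM with 9 and 7 of 12 genes found. Sbp, a secretory protein of the gland, was in all 32 DoubleTg members and no TripleTg member, and Svs4, of seminal vesicle secretion, was in all 24 TripleTg members and 1 DoubleTg member. Fibroblast markers were at 1213 and 1418 CPM (7 and 8 of 10 genes), endothelial markers at 101 and 48.3 CPM (5 and 2 of 11), and immune markers at 14.4 and 226 CPM (1 and 4 of 9, with Ptprc at 0 by rule). Among single markers, 4 of 6 fibroblast genes compared were at least 2-fold higher in TripleTg and 0 lower, with a median log2 ratio of 1.25, and the mesothelial sum was 101 and 354 CPM, all of it from Krt19, which epithelium also expresses. Higher epithelial, fibroblast, mesothelial and immune markers in TripleTg moved with the genotype ratios above, and their part in them was not tested.

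The MET transgene was read against immune cells, which should lack it. At 2000 UMIs per cell hMETtg was found in 2 of 21 DoubleTg cells of the mural and visceral ranges (9.52%, 1.17 to 30.4), against 9.09% of immune cells and 37.7% of epithelial-range cells. Median depths before thinning were 10504, 8898 and 25526 UMIs. In separate draws of each DoubleTg range, hMETtg was in 1 of 15 mural-range and 0 of 6 visceral-range cells. Contractile collagen-positive cells were at 4.96% and collagen-positive cells below the contractile minimum at 4.55%, both within the interval of the members. Unthinned, hMETtg was in 28.6% of these members and 22.7% of immune cells, and no expression is read from these shares. In TripleTg it was found in 0 of 16 cells, which by the exact binomial interval allows up to 20.6%, with the only cell that had hMETtg UMIs, at 1918 UMIs, left out by the thinning (unthinned 1 of 17, 5.88%), against 3.31% of immune and 6.17% of epithelial-range cells. The HGF transgene is designed to be active in all cells, so no cell type gives its background. At the same depth hHGFtg was found in 9.52% of the DoubleTg cells of both ranges (1.17 to 30.4), 5.93% of immune cells, 31.4% of contractile collagen-positive cells and 45.6% of collagen-positive cells below the contractile minimum. In separate draws of each DoubleTg range, hHGFtg was in 0 of 15 mural-range and 0 of 6 visceral-range cells. Unthinned, it was in 1 of 15 mural-range and 2 of 6 visceral-range cells of DoubleTg. Summed over the cells, hHGFtg stood at 43.3 and 48.3 CPM in the DoubleTg and TripleTg mural range, each from 1 cell, and at 600 and 108 CPM in contractile collagen-positive cells. Mouse Hgf had 4 and 3 UMIs in the mural range.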

How the data were processed

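Single cells of dissociated prostate tumours of 1 DoubleTg and 1 TripleTg library were captured with a 10x 3′ kit. The deposited values are raw UMI counts per gene and cell, made by the authors with Cell Ranger (6.0.2 in the submitters' processing notes and 6.1.1 in the DoubleTg file header) against mm10 with the transgene sequences, with 28000 features. The submitters' limits on genes and mitochondrial UMIs had been applied to the TripleTg matrix before deposit and were applied here to both. UMIs were summed over the cells of a set and divided by the set's total (CPM), with exact Poisson intervals. Ratios between sets have conditional binomial intervals, and shares of cells exact binomial (Clopper-Pearson) intervals. All cover counting error only. Cells are not replicates, so no test was made.

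A gene was compared where it reached 20 CPM in the members of both libraries (members over other cells), in the higher range of each library (between ranges) or in the higher library (between genotypes), and counted when at least 2-fold apart with the lower sum raised to 3 UMIs. Named genes were those of the lists, plus, at 50 CPM or more, the 15 highest by the lower ratio of both libraries over other cells, the 12 highest and 12 lowest between ranges, and the 15 highest and 15 lowest between genotypes among genes raised in members. The members and lists were chosen with earlier results of these data known, and 8 list genes had no feature. Some genes that these rules name are not reported here. Epithelial, endothelial, immune, fibroblast, glial, basal, secretory, mesothelial, striated muscle and interstitial cell markers were also listed. Where cells were thinned to 2000 UMIs, each set of cells had its own random draw. No doublet caller was run. Gene positions are from GENCODE M21 on GRCm38 and promoter windows from RefSeq on GRCm38.p6. Calculations used Python 3.11.15, numpy 2.4.6, scipy 1.17.1, pandas 2.3.3 and, for the TMM alternative, edgeR 4.0.16 in R 4.3.3, and the ratio code was tested on simulated data. Alternatives changed the contractile minimum, the depth minimum, the index minimum, the range of members, the scaling, the CPM minimum, the fold and the depth per cell.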

Additional observations from a re-analysis of the deposited data

How the results depend on the processing

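No paired analysis was possible because there is 1 library per genotype, and leaving out a replicate was not possible for the same reason. Of the values that answer a comparison, 41 stayed close to the main value under an alternative and 14 moved. Close meant a count within a fixed fold of the main count, or a share inside its interval. Of the values of single genes, 356 lay inside the counting interval of the main value, 58 outside it and 11 changed sign. These intervals can be wide. A change of sign was counted only where the main ratio was at least 2-fold, and ratios that could not be determined were left out. The cause of these changes was not tested. With the contractile minimum at 40 per 10000, TripleTg had 15 members, 6.67% of them epithelial-marked, and with the index minimum at 10 its visceral-range share was 4.17%. Genes at least 2-fold higher in TripleTg members numbered 332 with cells thinned to 2000 UMIs and 243 at 100 CPM or more, and those lower 228 and 190. Genes 2-fold higher in members numbered 299 against contractile collagen-positive cells, 408 at 4-fold and 1176 for the mural and visceral ranges only. Genes higher in the mural range numbered 33 with the index minimum at 10 and 22 thinned, and those higher in the visceral range 270 and 78. The genotype log2 ratio of Gm26917 was 1.99 in the mural and visceral ranges and 2.74 in the mural range alone, where that of Postn was 3.03. In these ratios a sum under 3 UMIs was raised to 3, and as counted, on 2 and 11 UMIs, that of Postn was 3.62 (1.42 to 6.83). A split of the mural range by Kcnj8 UMIs was chosen after seeing the data. With a Kcnj8 UMI the log2 ratios were 0.30 for Acta2, 0.90 for Tagln, 0.15 for Mylk, 0.062 for Flna and 0.51 for Pdgfa, and without one 2.95 for Mgp and -0.49 for Il1r1. The ratio of Mgp was 2.49 with the contractile minimum at 40. Few cells and the lower depth of TripleTg members limit every genotype value.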
